A study of Mus musculus with 16 samples.

Results

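The effect of a guide RNA against Nlrc5 was compared between tumours and culture of the mouse melanoma line B16F10-TDMa. For each gene, the guide effect in tumours, log2 of sgNlrc5 over sgScramble, was set against the same effect in culture, and the difference, tumour minus culture, was tested. Genes entered when the tumour table and the culture table both listed them and their mean normalised count was at least 10 in each. They numbered 11782, of 12874 genes listed in both tables and 15343 listed in either. Just inside that minimum lay Cers3 with a tumour mean of 10.03 and Gm33979 with a culture mean of 10.01, and just outside lay Serpini1 with a tumour mean of 9.99 and Gm37819 with a culture mean of 9.99.

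B16F10 is an established mouse melanoma line, and the labels do not say what the suffix TDMa stands for. All 12 libraries came from TDMa cultures or TDMa tumours, so anything TDMa adds to B16F10 was shared by the melanoma cells of the 4 groups. Tumour libraries also held markers of other cell types, given below. The groups were tumours of cells transduced with sgNlrc5 (4 libraries), tumours of cells transduced with the scrambled guide sgScramble (4 libraries), sgNlrc5 cells in culture (2 libraries) and sgScramble cells in culture (2 libraries). Cells had been kept in DMEM with fetal bovine serum before total RNA was sequenced. The mouse strain, sex, age, site of growth and day of harvest are not given in the labels. The labels do not say whether libraries of a group came from separate animals or cultures, or whether the line was a clone, so the p-values reflect the spread among these libraries, which may be technical.

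NLRC5 is a transactivator that joins the factors bound at the S, X and Y boxes of MHC class I promoters and raises transcription of the heavy chains, B2m and several antigen processing genes. Class I molecules carry peptides from inside the cell to its surface, where CD8 T cells read them. Interferon drives an overlapping set of genes through a different element, the interferon-stimulated response element, which STAT and IRF proteins bind. The study concerns targeted demethylation of Nlrc5, by its title, and the comparison asks which effects of the guide carry over when the same cells grow as a tumour. These are bulk samples, in which fewer cells of a type and less RNA per cell cannot be told apart.

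Between 12183889 and 16390886 reads fell on the listed genes of a library. The share held by the top 10 genes was 9.34% to 14.1% in tumours and 5.79% to 6.25% in culture. The 11782 genes held 98.1% to 99.9% of the normalised counts. All 7 melanocyte markers were listed in both tables, and their summed normalised count was 598000 to 954000 in sgNlrc5 tumours and 566000 to 638000 in sgScramble tumours.

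Many genes differed between the guides in both settings. In tumours 1867 of the 11782 genes were higher with sgNlrc5 (15.8%) and 2586 were lower (21.9%). In culture 2091 were higher (17.7%) and 1957 were lower (16.6%). With library sums made equal the culture calls were 1634 higher and 2484 lower, and with each library centred on its median the tumour calls were 2206 higher and 2038 lower. Of the 1863 genes called in both, 938 had moved the same way and 925 the opposite way. Across all genes the tumour and culture effects had a Pearson correlation of -0.029 and a Spearman correlation of 0.011, which describes 11782 genes measured in shared libraries and not independent points. The difference itself passed for 4311 genes at a limma adjusted p under 0.05, 1771 with a higher effect in tumours (15%) and 2540 with a lower one (21.6%), or 2068 and 2127 with median centring. It exceeded 2-fold for 1009 and 4-fold for 284. The median difference over all genes was -0.07, and the middle 50% ran from -0.36 to 0.28.

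Each gene was placed by its calls. A reversed gene passed in tumours and in culture with opposite signs, and so did its difference. A lost gene had a culture effect, no called tumour effect, and a called difference against the culture effect. A kept gene passed in both with 1 sign, and a gained gene passed in tumours but not in culture with the difference called. Reversed genes numbered 409 that were higher in tumours and lower in culture (3.47% of those tested) and 516 that were lower in tumours and higher in culture (4.38%), but 472 and 404 with equal sums and 458 and 415 with median centring. Lost genes numbered 638 that had been higher in culture (5.42%) and 443 that had been lower (3.76%), or 494 and 510 with equal sums. The tumour estimate had the opposite sign to the culture effect in 540 of the 638 and 356 of the 443. Lost thus means that no tumour effect was called, not that it was 0. Kept genes were 361 higher (3.06%) and 577 lower (4.9%), or 274 and 758 with equal sums. Gained genes were 714 higher (6.06%) and 1083 lower (9.19%), or 885 and 824 with median centring. A further 1104 genes had a culture effect, no called tumour effect and no called difference, and stayed undecided (9.37%).

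**Figure D1:**
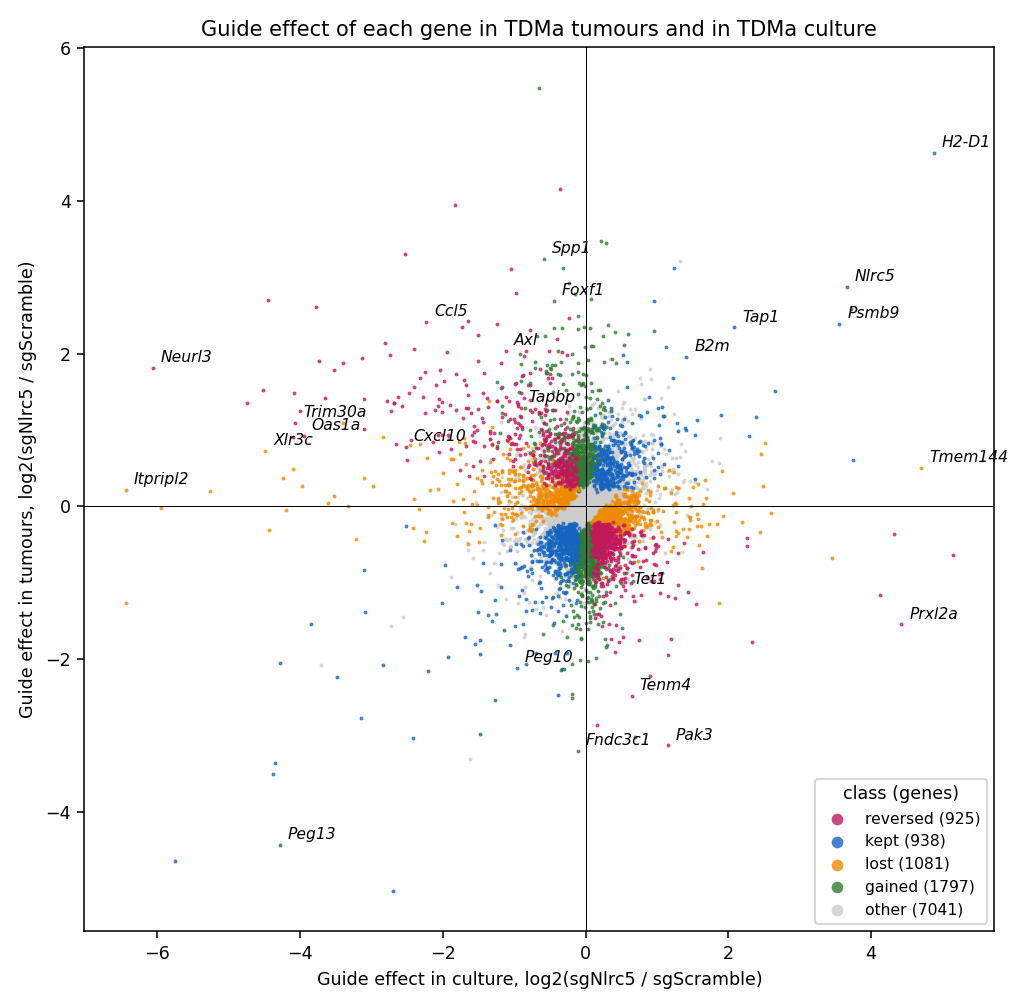
Guide effect of each of 11782 genes in TDMa culture (x axis, log2 sgNlrc5 over sgScramble) and in TDMa tumours (y axis, same scale), 1 point a gene, coloured by class. Kept genes such as Nlrc5 and H2-D1 lie at the upper right, and reversed genes fill the upper left (409) and lower right (516).

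Of 303 genes more than 2-fold lower in culture, 40 were kept, 115 lost, 118 reversed and 30 undecided. Of 139 genes more than 2-fold higher in culture, 35 were kept, 58 lost, 24 reversed and 22 undecided. The median difference was 1.32 for genes reversed to higher in tumours and -0.79 for those reversed to lower. Of these, 77 genes and 12 genes changed over 2-fold in both settings. These counts describe the classes, whose definition uses the same values.

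**Figure D2:**
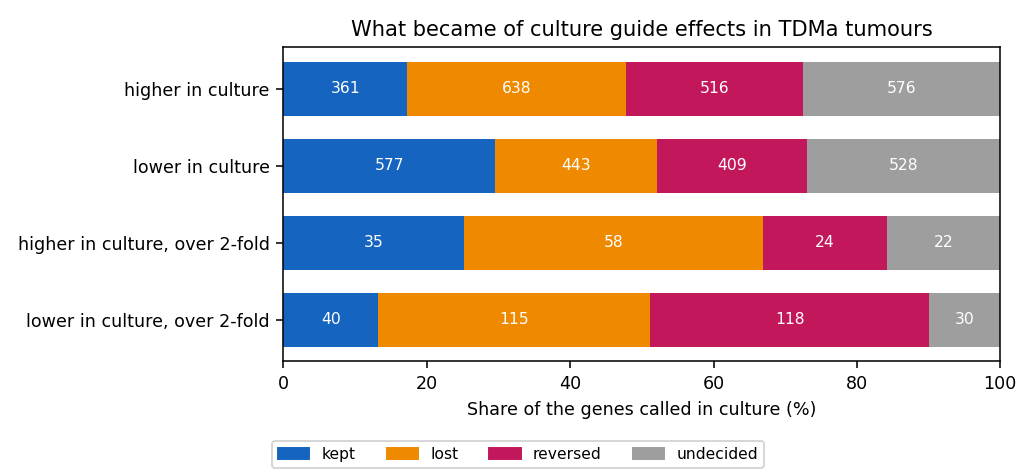
Share of the genes called in TDMa culture (x axis, percent) that were kept, lost, reversed or undecided in TDMa tumours, for genes higher or lower with sgNlrc5 in culture and for those changed more than 2-fold. The numbers in the bars are genes: 361 of 2091 genes higher in culture and 577 of 1957 lower in culture were kept.

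Nlrc5 itself (ENSMUSG00000074151) was higher with its guide in both settings. It had 4380, 3430, 3650 and 4200 normalised counts in sgNlrc5 tumours, against 837, 257, 559 and 656 in sgScramble tumours. Its culture values were 3150 and 3140 with sgNlrc5, against 254 and 242 with sgScramble. No sgNlrc5 library overlapped an sgScramble library in either setting. The guide effect was 2.88 ± 0.28 in tumours (SE, limma adjusted p = 3.1e-05) and 3.66 ± 0.06 in culture (adjusted p = 5.3e-18). The difference of -0.79 ± 0.30 missed the threshold (adjusted p = 0.052), and it passed without sgScramble tumour replicate 2 (-1.13, adjusted p = 5.2e-05) or sgNlrc5 tumour replicate 1 (-0.84, adjusted p = 0.049).

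Class I heavy chains and B2m were higher with the guide in both settings. Of 13 on the list, 6 were listed in culture and 5 were tested. Of these, 5 were higher in tumours and 4 in culture, beside 15.8% and 17.7% of all genes. The difference was higher for 2 and lower for 0 (15% and 21.6% over all genes), with a median of 0.54. H2-D1 (ENSMUSG00000073411), a classical heavy chain, had 31000, 31900, 27600 and 29500 normalised counts in sgNlrc5 tumours, against 972, 911, 1390 and 1730 in sgScramble tumours. The cultures had 3830 and 3850 with sgNlrc5, against 148 and 113 with sgScramble. Its groups lay far apart in both settings, and its effects of 4.63 ± 0.17 and 4.88 ± 0.09 differed by -0.25 ± 0.22 (adjusted p = 0.40). B2m (ENSMUSG00000060802), the light chain of every class I molecule, rose by 1.95 ± 0.22 in tumours and 1.41 ± 0.04 in culture. Its difference of 0.54 ± 0.23 missed the threshold (adjusted p = 0.077), and passed without sgScramble tumour replicate 1 (0.73, adjusted p = 0.0092) or sgNlrc5 tumour replicate 3 (0.64, adjusted p = 0.035).

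The nonclassical heavy chains differed among themselves. H2-T22 had 14400, 12600, 11300 and 15300 normalised counts in sgNlrc5 tumours, against 3590, 1570, 2650 and 3970 in sgScramble tumours. With sgNlrc5 in culture it had 1430 and 1520, against 1000 and 954 with sgScramble. It was kept with a larger effect in tumours, 2.26 against 0.59, a difference of 1.67 ± 0.26 (adjusted p = 0.00012). H2-T24 was gained, at 1.52 ± 0.29 in tumours (adjusted p = 0.0018) and 0.21 ± 0.26 in culture (adjusted p = 0.59). Its difference of 1.31 lost the call without array weights (adjusted p = 0.052) and with voom (0.051). H2-M3, a presenter of formylated peptides, rose by 2.58 ± 0.27 in tumours and 3.72 ± 0.51 in culture. Its culture sgScramble replicates had 20.1 and 2.85 normalised counts, and its difference of -1.13 (adjusted p = 0.27) was -2.36 without replicate 1 (adjusted p = 0.00025) and 0.092 without replicate 2. Reads may be shared among the closely similar H2 genes, which makes their single values uncertain.

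The upstream sequences of 3 kept class I genes are shown because they hold the paired boxes through which NLRC5 is known to act. The pair was searched on both strands as TGACG, the core of the X2 box, followed after 10 to 30 bases by ATTGG, the core of the Y box in reverse. It was chosen after the values were seen. It was found within 250 bases upstream of H2-D1, H2-M3 and B2m, 3 of the 4 list members in the RefSeq promoter table, which uses build GRCm38.p6. The remaining member, H2-T22, was also kept, with a larger effect in tumours, and held no such pair. Of all 27025 promoters in that table, 187 held it (0.692%). Each line gives the 150 bases before the start, 5′ to 3′, at chr17:35262944-35263093 (plus strand), chr17:37270084-37270233 (plus strand) and chr2:122147537-122147686 (plus strand). Capitals mark the pair, which begins 101, 46 and 78 bases upstream, and in B2m also an interferon element (GAAANNGAAA) and a kappaB motif (GGGANNTTCC).
H2-D1: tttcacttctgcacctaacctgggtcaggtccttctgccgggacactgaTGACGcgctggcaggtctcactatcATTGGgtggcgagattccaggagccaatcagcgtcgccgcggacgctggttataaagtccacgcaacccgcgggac
H2-M3: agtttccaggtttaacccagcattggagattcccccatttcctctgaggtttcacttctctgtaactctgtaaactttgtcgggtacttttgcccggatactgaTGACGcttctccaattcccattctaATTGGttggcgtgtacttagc
B2m: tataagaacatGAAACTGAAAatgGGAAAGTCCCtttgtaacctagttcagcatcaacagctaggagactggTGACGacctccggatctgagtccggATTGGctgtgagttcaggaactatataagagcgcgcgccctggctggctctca
A match describes these letters and is not evidence of binding in these cells.

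Antigen processing genes followed several courses. Of 14 tested, 5 were lost, 3 kept, 3 reversed and 2 gained. The list includes Nlrc5 itself, the target of the guide, and the 3 kept members were Nlrc5, Tap1 and Psmb9. In all, 8 were higher and 0 lower in tumours (15.8% and 21.9% over all genes), while 5 were higher and 6 lower in culture (17.7% and 16.6%). The difference was higher for 8 and lower for 3 (15% and 21.6% over all genes), with a median of 0.79. Tap1, a peptide transporter subunit, was kept at 2.34 ± 0.25 in tumours and 2.09 ± 0.08 in culture. Psmb9, an immunoproteasome subunit, was kept at 2.39 ± 0.32 and 3.56 ± 0.19. The Psmb9 difference of -1.17 (adjusted p = 0.027) did not pass without culture sgScramble replicate 2, culture sgNlrc5 replicate 1, tumour sgScramble replicate 1 or 4, or tumour sgNlrc5 replicate 2 (adjusted p 0.059 to 0.12). It also failed with a pseudocount of 8 (adjusted p = 0.055), without the intensity trend (0.081), without array weights (0.11) and with voom (0.20).

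Tapbp, the tapasin chaperone that loads peptide, was reversed. It had 10500, 8440, 5220 and 8340 normalised counts in sgNlrc5 tumours, against 2990, 1810, 3700 and 5420 in sgScramble tumours. In culture it had 481 and 464 with sgNlrc5, against 900 and 873 with sgScramble. The lowest sgNlrc5 tumour lay just under the highest sgScramble tumour, while the culture groups were well apart in the other direction. The effects were 1.29 ± 0.29 and -0.91 ± 0.07, and the difference was 2.19 ± 0.31 (adjusted p = 5.6e-05). Erap1, a peptide-trimming protease, and Psmb10, the remaining tested inducible proteasome subunit, were also reversed, with tumour effects of 1.09 and 0.88 against -0.58 and -0.57 in culture. Tap2, the partner of Tap1, was gained, at 2.0 ± 0.29 in tumours and -0.20 ± 0.24 in culture (adjusted p = 0.57).

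Most tested interferon-stimulated genes were higher with the guide in tumours and lower in culture. Of 29 tested type I interferon genes, out of 35 on the list, 24 were higher and 0 lower in tumours, while 0 were higher and 26 lower in culture. The difference was higher for 28 and lower for 0, with a median of 2.54 beside -0.07 over all genes, and 22 were reversed, 3 lost and 2 gained. Of 11 tested interferon gamma genes, out of 25 on the list, 7 were higher and 0 lower in tumours, 0 were higher and 9 lower in culture, and the difference was higher for 11 (median 2.88), with 5 reversed, 4 lost and 2 gained. For both lists the shares over all genes were 15.8% higher and 21.9% lower in tumours and 17.7% and 16.6% in culture. For the difference they were 15% and 21.6%. Eif2ak2, the RNA-activated kinase PKR, was the 1 type I member whose difference missed the threshold, with -0.11 in tumours and -0.50 in culture (adjusted p = 0.052). Under the alternatives the number of reversed type I genes ran from 13, without the intensity trend, to 24.

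Oas1a, an antiviral oligoadenylate synthetase, had 818, 667, 872 and 1020 normalised counts in sgNlrc5 tumours, against 432, 343, 440 and 569 in sgScramble tumours. Culture libraries gave 8.99 and 8.72 with sgNlrc5, against 200 and 114 with sgScramble. The guide groups did not overlap in either setting and stood in opposite order. The effects were 0.93 ± 0.16 in tumours (adjusted p = 0.00094) and -3.95 ± 0.31 in culture (adjusted p = 1.1e-08), a difference of 4.87 ± 0.30 (adjusted p = 1.5e-08). Ddx58, the RNA sensor RIG-I, had 1220, 1210, 1260 and 1590 in sgNlrc5 tumours, against 618, 560, 693 and 911 in sgScramble tumours. For culture the values were 318 and 274 with sgNlrc5, against 1260 and 1000 with sgScramble. Its sgNlrc5 tumours were all higher and its sgNlrc5 cultures all lower, and the difference was 2.86 ± 0.20 (adjusted p = 4.4e-08).

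Some members that signal for or regulate interferon are given for their roles. Irf7, which amplifies type I interferon production, stood at 1.64 in tumours and -1.98 in culture, and Irf9, the DNA-binding partner of STAT proteins, at 0.40 and -1.63. Usp18, which restrains interferon receptor signalling, stood at 1.35 and -2.69. Isg15, a ubiquitin-like modifier, stood at 0.94 and -2.07. Each of these 4 was reversed. Stat2 was gained, at 0.87 in tumours with -0.30 in culture (adjusted p = 0.11), and Ifih1, the RNA sensor MDA5, was lost, at 0.48 (adjusted p = 0.067) with -1.07 in culture.

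Among the interferon gamma genes, Cxcl10, a chemokine for activated T cells, had 1000, 708, 571 and 817 normalised counts in sgNlrc5 tumours, against 607, 276, 456 and 496 in sgScramble tumours. Its culture values were 60.7 and 78.5 with sgNlrc5, against 380 and 419 with sgScramble. The tumour groups met at their edges, where 571 lay under 607, and the culture groups were far apart. Its effects were 0.78 ± 0.22 and -2.51 ± 0.15, with a difference of 3.29 ± 0.28 (adjusted p = 3.3e-07). Tgtp2, an immunity-related GTPase, had 3650, 3400, 2900 and 5100 in sgNlrc5 tumours, against 1820, 464, 1330 and 3150 in sgScramble tumours. In culture it rested on 2 reads with sgNlrc5 against 52 with sgScramble, a ratio between 0.00495 and 0.159 (95% interval, counting error only). Its tumour effect of 1.42 was 0.90 without sgScramble tumour replicate 2 (adjusted p = 0.02). The tumour effect did not pass without sgNlrc5 tumour replicate 4 (1.26, adjusted p = 0.058) or the intensity trend (0.064), nor its difference with voom (0.068), and reads may be shared with its near-identical copy Tgtp1. Cd274, the checkpoint ligand PD-L1, was gained, at 1.58 in tumours and -0.01 in culture.

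The guanylate-binding proteins Gbp3 and Gbp2 were lost. Gbp3 had 1180, 848, 776 and 1390 normalised counts in sgNlrc5 tumours, against 553, 170, 503 and 1120 in sgScramble tumours. The cultures had 11.2 and 10.7 with sgNlrc5, against 158 and 98.9 with sgScramble. The sgScramble tumours varied widely, and 1 of them reached into the sgNlrc5 range. The tumour effect of 1.09 ± 0.43 missed the threshold (adjusted p = 0.062), and it passed without sgScramble tumour replicate 4 (1.49, adjusted p = 0.0079) and with quantile normalisation (0.05). Gbp2 stood at 0.64 ± 0.53 in tumours and -2.23 ± 0.24 in culture. Its tumour effect was 1.19 without the same replicate (adjusted p = 0.038), and its difference of 2.86 did not pass with voom (adjusted p = 0.12).

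The interferon element lies close to the start of several of these genes, and 5 are shown, of which 4 were reversed and Gbp3 was lost. The element was searched on both strands as GAAANNGAAA in the 250 bases upstream, and overlapping matches were joined. It was in 8 of 11 interferon gamma genes (72.7%) and in 22 of the 332 genes reversed to higher in tumours that the table holds (6.63%), against 821 of all 27025 promoters (3.04%). Only 69% of the type I list and 77% of the genes tested were in the table, under the 80% needed, so the check is void for them. Each line gives the 100 bases before the start on the gene's own strand (GRCm38.p6), with the element or its reverse complement in capitals. The regions are chr5:120907526-120907625 (minus strand), chr7:104465194-104465293 (minus strand), chr15:77728972-77729071 (plus strand), chr3:142559944-142560043 (plus strand) and chr11:49064213-49064312 (minus strand). Trim30a, Apol9b and Gbp3 have 2 starts in the table, and the first listed is shown.
Oas1a: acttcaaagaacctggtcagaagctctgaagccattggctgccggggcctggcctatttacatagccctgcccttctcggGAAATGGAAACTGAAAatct
Trim30a: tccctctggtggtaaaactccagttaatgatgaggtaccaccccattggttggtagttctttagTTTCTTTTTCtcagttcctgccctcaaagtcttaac
Apol9b: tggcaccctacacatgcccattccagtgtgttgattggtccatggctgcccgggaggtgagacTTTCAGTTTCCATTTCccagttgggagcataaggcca
Gbp3: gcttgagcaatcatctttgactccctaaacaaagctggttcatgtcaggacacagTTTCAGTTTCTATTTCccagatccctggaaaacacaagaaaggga
Tgtp2: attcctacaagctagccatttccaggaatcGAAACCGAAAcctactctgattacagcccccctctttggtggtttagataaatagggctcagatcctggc

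Leukocyte genes rose in the same tumours. The summed normalised count of 4 pan-leukocyte markers was 2380 to 3690 in sgNlrc5 tumours and 615 to 1370 in sgScramble tumours. That of 13 macrophage markers was 15500 to 21500 against 4540 to 7210, and that of 13 T cell markers 440 to 1670 against 122 to 196. In the tumour fit 12 of 12 tested macrophage markers and 13 of 13 T cell markers were higher with sgNlrc5, and 6 of 8 cytotoxic effectors. Of 8 tested fibroblast markers 5 were higher and 1 lower, and of 4 tested dendritic cell markers only 1 was higher. Among all 13385 genes tested in tumours 5268 were called in either direction. Of the 11782 genes compared, 15.8% were higher and 21.9% lower in tumours. Fibroblast markers summed to 1130 to 1310 against 379 to 829, while endothelial markers, at 4050 to 5310 against 4000 to 5130, overlapped. In culture 0 of 13 T cell markers, 0 of 12 cytotoxic effectors and 2 of 13 macrophage markers were listed. Those 2, Cd68 and Lyz2, summed to 1030 to 1080 in sgNlrc5 cultures and 754 to 809 in sgScramble cultures. Of 10 fibroblast markers 5 were listed, among them Col1a1 and Postn. These 5 summed to 581 to 614 in sgNlrc5 cultures and 749 to 788 in sgScramble cultures. The dendritic cell markers Batf3 and Zbtb46 summed to 316 to 323 and 348 to 379, and the endothelial marker Vwf stood at 1270 to 1300 and 507 to 554. The macrophage, fibroblast, dendritic cell and endothelial sums thus include genes that the cultures expressed. The part of host cells in the tumour effects was not tested.

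**Figure D3:**
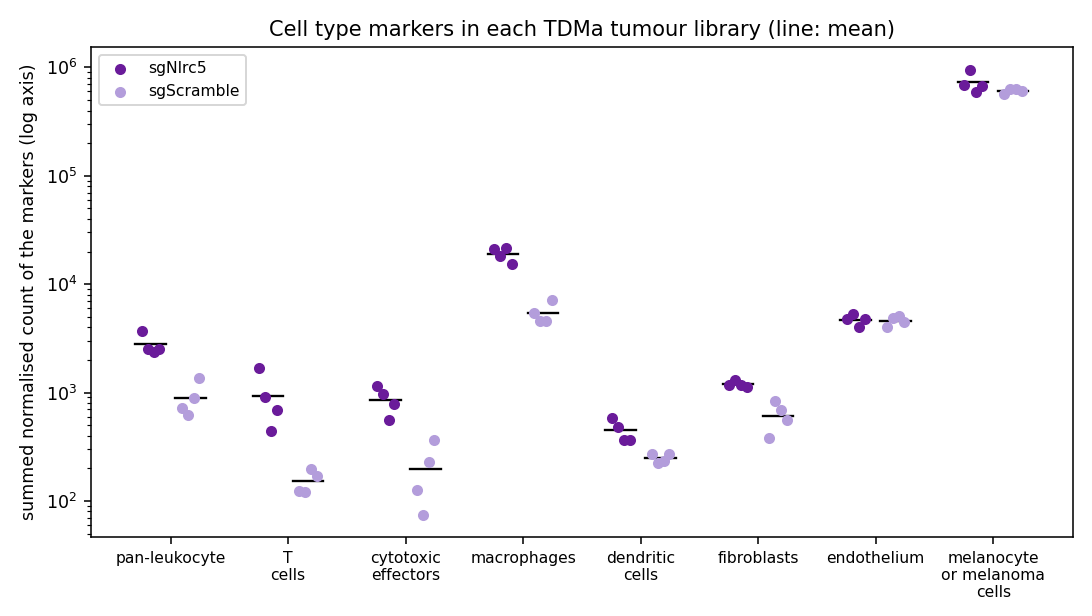
Summed normalised count of cell type markers (y axis, log scale) in each TDMa tumour library, sgNlrc5 left and sgScramble right for each list, with the group mean as a line. All 4 sgNlrc5 tumours lie above all 4 sgScramble tumours for pan-leukocyte, T cell, cytotoxic, macrophage, dendritic cell and fibroblast markers, while endothelial and melanocyte markers overlap. Of 4 tested dendritic cell markers, 1 was called higher, beside 15.8% of the 11782 genes compared. All sums but those of T cell and cytotoxic markers include genes also listed in culture.

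The 6 leading genes reversed to higher in tumours, by the size of the difference, were Neurl3, Sp100, Prex1, Pik3cd, Trim30a and Apol9b. Neurl3, a ubiquitin ligase gene, had 143, 98.7, 81.4 and 93.4 normalised counts in sgNlrc5 tumours, against 30.9 ± 15.1 (SD, n = 4), with a highest value of 47.6, in sgScramble tumours. In culture it rested on 3 reads with sgNlrc5 against 348 with sgScramble, a ratio between 0.00193 and 0.0277. The fitted difference of 7.88 ± 0.43 (adjusted p = 6e-09) depends on the pseudocount at so few reads. Sp100, of PML nuclear bodies, had 669, 449, 458 and 505 in sgNlrc5 tumours, against 228, 115, 199 and 317 in sgScramble tumours. In culture it rested on 2 reads with sgNlrc5 against 113 with sgScramble, a ratio between 0.00231 and 0.0714. Both genes were close to absent from sgNlrc5 cultures and present in every sgNlrc5 tumour.

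Prex1, an exchange factor for Rac, had 286, 187, 200 and 199 normalised counts in sgNlrc5 tumours, against 71.2, 40.1, 41.8 and 85.6 in sgScramble tumours. With sgNlrc5 in culture it had 11.2 and 16.5, against 186 and 202 with sgScramble. Pik3cd, the delta catalytic subunit of PI3-kinase, stood at 1.25 ± 0.16 in tumours and -4.01 ± 0.32 in culture. Both are known for their roles in leukocytes. Both were expressed in sgScramble cultures, where 1 of 4 pan-leukocyte markers was listed, Coro1a, with 8.61 and 16.2 normalised counts. The pan-leukocyte sum was higher in sgNlrc5 tumours, as given above, and the part of leukocytes in the tumour effects of Prex1 and Pik3cd was not tested. Trim30a, an interferon-induced TRIM protein, stood at 1.1 ± 0.22 and -4.07 ± 0.34, and Apol9b, of the apolipoprotein L family, at 2.13 ± 0.40 and -2.81 ± 0.32.

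Of 10 tested genes of NF-kB signalling and chemokines, 2 were reversed (Ccl5 and Csf1), 4 lost, 2 kept and 1 gained. Ccl5, a chemokine for T cells, had 310, 135, 127 and 190 normalised counts in sgNlrc5 tumours, against 21.8, 26.7, 27.8 and 67.9 in sgScramble tumours. In culture it had 64.1 and 62 with sgNlrc5, against 320 and 280 with sgScramble. The groups were separate in both settings and in opposite order, with a difference of 4.65 ± 0.40 (adjusted p = 4.7e-07). Csf1, the growth factor of macrophages, stood at 1.49 ± 0.17 in tumours and -0.90 ± 0.07 in culture. The subunits Nfkb1 and Nfkb2 were kept, at -0.34 and -0.35 in tumours and -0.48 and -0.42 in culture, and Relb and Rela were lost, with -0.10 and -0.001 in tumours and -1.19 and -0.33 in culture. Over the list of 10 the difference was higher for 7 and lower for 0 (median 0.77), with 3 higher and 2 lower in tumours and 0 higher and 8 lower in culture. In tumours the shares over all genes were 15.8% higher and 21.9% lower.

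Genes of the invasive melanoma state were split. Axl, a receptor tyrosine kinase that marks that state, had 5470, 5360, 4090 and 5730 normalised counts in sgNlrc5 tumours, against 1560, 796, 1310 and 1480 in sgScramble tumours. Culture libraries gave 640 and 620 with sgNlrc5, against 1380 and 1360 with sgScramble. Its groups were apart in both settings, with effects of 2.04 ± 0.19 and -1.12 ± 0.06. The matricellular genes Ccn2 and Thbs1 were reversed the same way, at 1.48 and 1.33 in tumours and -4.08 and -1.90 in culture. Jun, an AP-1 subunit, stood at 1.01 and -0.29, and its culture effect did not pass without sgScramble replicate 1 or 2, sgNlrc5 replicate 2 or the intensity trend (adjusted p 0.080 to 0.11). Tead4 and Tead1, DNA-binding partners of YAP, were reversed the other way, at -0.96 and -0.48 in tumours and 0.52 and 0.33 in culture. Of the 11 tested the difference was higher for 6 and lower for 3 (15% and 21.6% over all genes), with a median of 0.41, and 6 were reversed.

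Matrix genes went with the same pattern in part. Of 13 tested collagens and matrix genes, 3 were higher and 2 lower in tumours, 2 were higher and 9 lower in culture, and the difference was higher for 6 and lower for 0 (median 0.35). Shares over all genes were 15.8% and 21.9% in tumours, 17.7% and 16.6% in culture, and 15% and 21.6% for the difference. Postn, the matrix protein periostin, had 158, 283, 378 and 321 normalised counts in sgNlrc5 tumours, against 48.3, 103, 90.5 and 78.5 in sgScramble tumours. For culture the values were 272 and 246 with sgNlrc5, against 383 and 422 with sgScramble. The groups did not overlap, and the difference was 2.44 ± 0.32 (adjusted p = 2.4e-05). Col1a1 was also reversed, at 0.82 and -1.32. Col6a1 was lost, at 0.48 ± 0.50 in tumours and -4.10 ± 0.44 in culture. Fn1, encoding fibronectin, was kept, at -1.11 and -1.47. The sum of fibroblast markers, which include Postn and Col1a1, was higher in sgNlrc5 tumours, as given above. The part of fibroblasts in these effects was not tested.

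**Figure D4:**
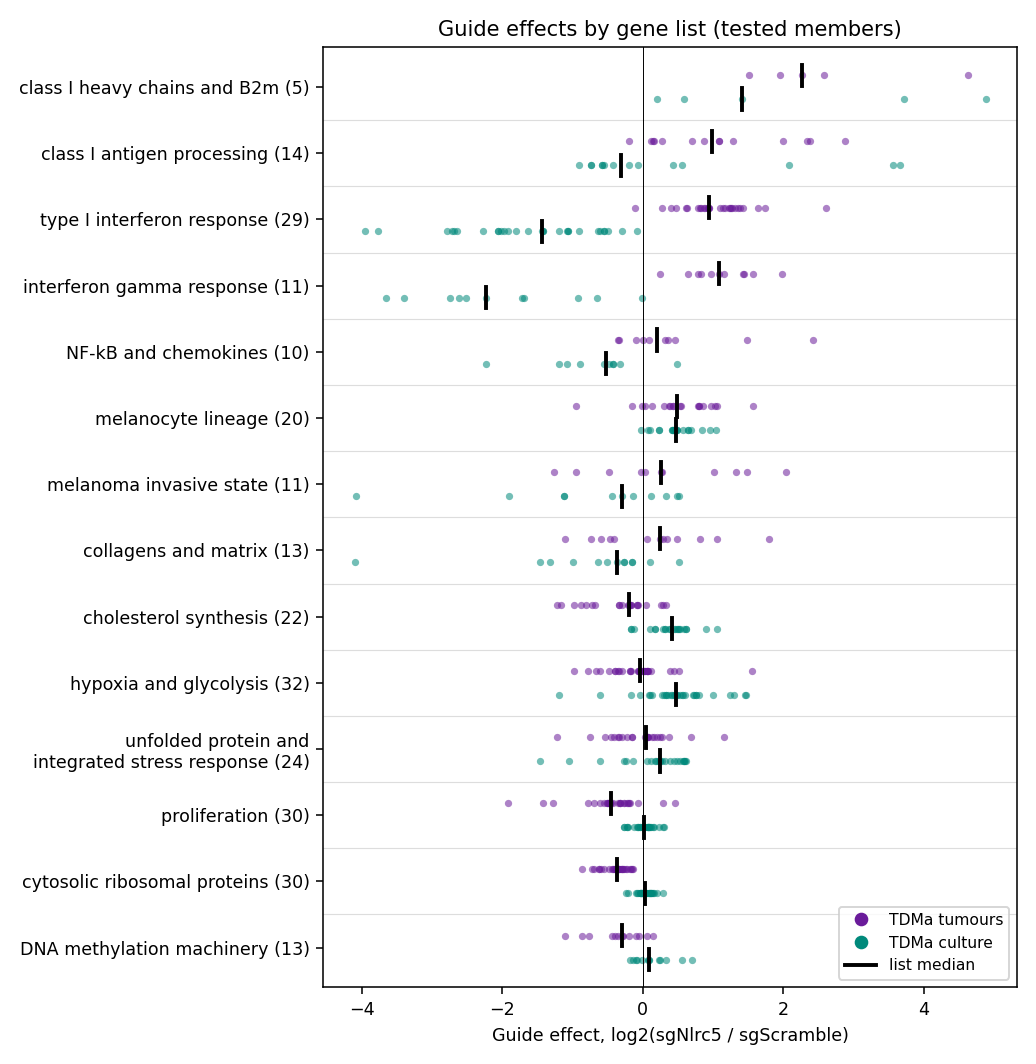
Guide effect (x axis, log2 sgNlrc5 over sgScramble) of each tested member of 14 gene lists, TDMa tumours above and TDMa culture below in each row, with the list median as a bar and the number of members in brackets. Interferon lists lie right of 0 in tumours and left of 0 in culture, cholesterol and hypoxia lists lie further left in tumours than in culture, and class I lists lie right of 0 in tumours.

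In the other direction, the leading genes reversed to lower in tumours were Prxl2a, Pak3, Ddit4l, Tenm4 and Col11a2. Prxl2a, a peroxiredoxin-like protein, had 255, 186, 149 and 147 normalised counts in sgNlrc5 tumours, against 409, 569, 628 and 524 in sgScramble tumours. Its culture values were 118 and 107 with sgNlrc5, against 3.83 and 4.76 with sgScramble. Its difference was -5.97 ± 0.25 (adjusted p = 2.9e-10). Leading genes of a class were picked among those whose groups did not overlap where called, so the separation of their groups follows from that choice.

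Tenm4, a teneurin of the cell surface, had 24.1, 21.4, 38.9 and 38.2 normalised counts in sgNlrc5 tumours, against 113, 164, 212 and 213 in sgScramble tumours. With sgNlrc5 in culture it had 498 and 444, against 311 and 289 with sgScramble. Pak3, a p21-activated kinase, stood at -3.13 ± 0.25 in tumours and 1.16 ± 0.21 in culture. Ddit4l, an mTORC1 inhibitor, and Col11a2, a collagen XI chain, stood at -2.22 and -1.95 in tumours and 0.91 and 1.16 in culture. The culture effect of Ddit4l did not pass without sgScramble replicate 1, sgNlrc5 replicate 1 or 2, or the intensity trend (adjusted p 0.071 to 0.28). That of Col11a2 did not pass without sgScramble replicate 1, sgNlrc5 replicate 1 or the trend (0.051 to 0.078).

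**Figure D5:**
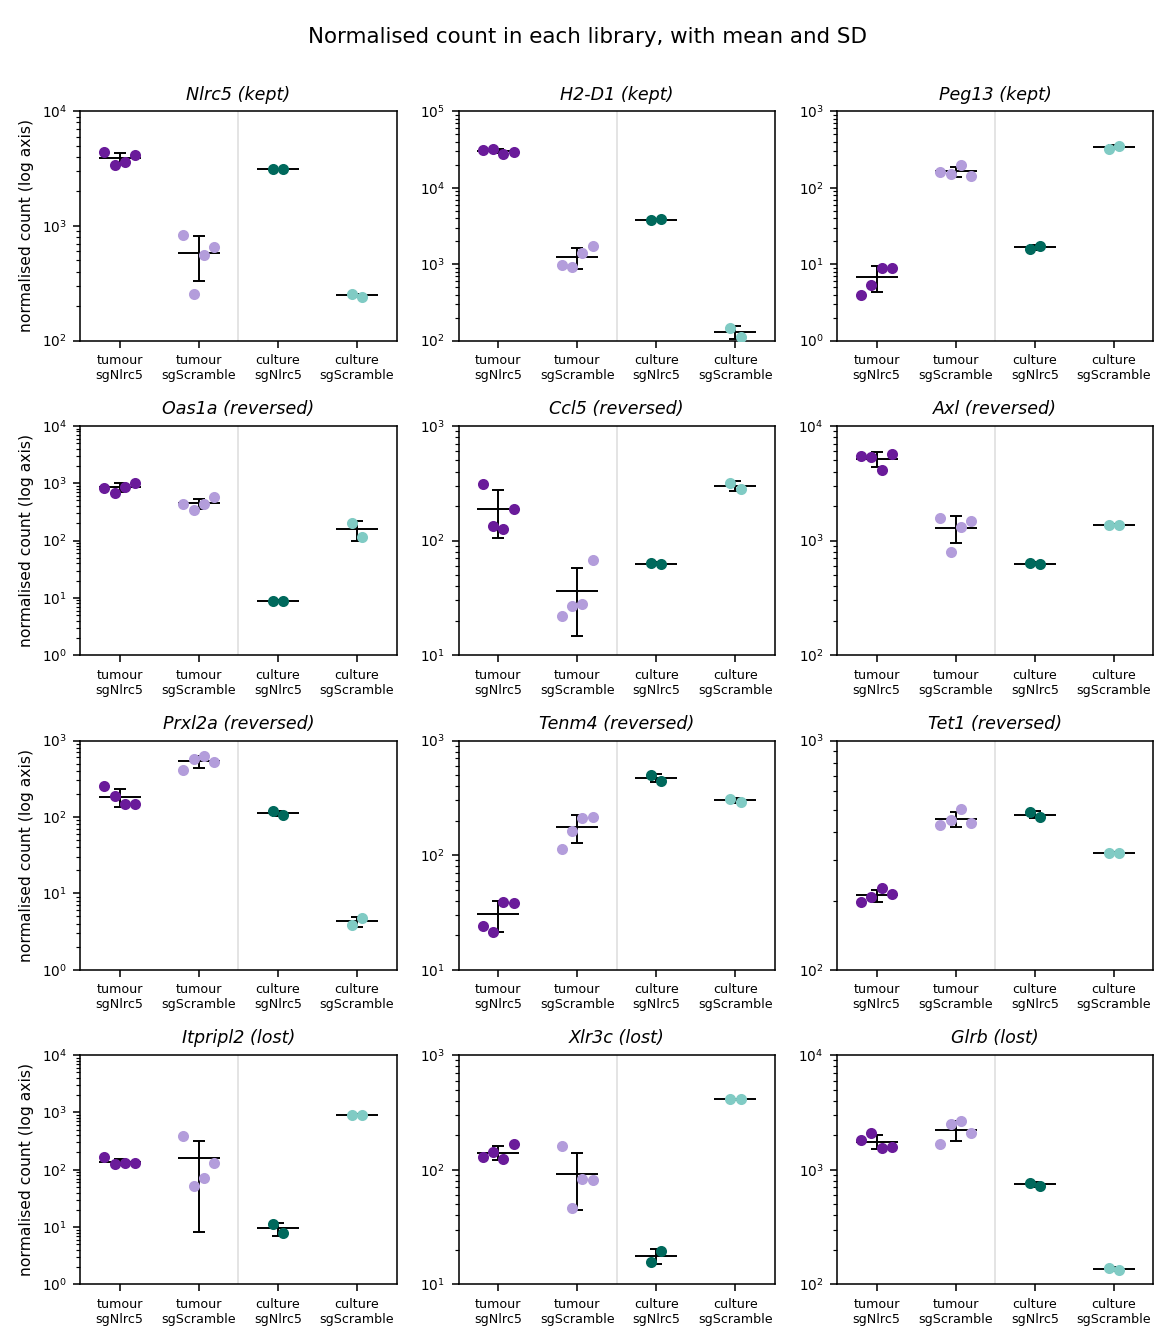
Normalised count (y axis, log scale) of 12 genes in each library, tumours left and culture right of the grey line, sgNlrc5 left of sgScramble in each. Points are libraries, and black lines are the mean with its SD. In kept genes both pairs step the same way, in reversed genes the steps are opposite, and in lost genes the tumour groups lie close or overlap.

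Many cholesterol synthesis genes lost or reversed their culture rise. Of 22 tested, 0 were higher and 7 lower in tumours (15.8% and 21.9% over all genes), 15 were higher and 1 lower in culture (17.7% and 16.6%), and the difference was higher for 2 and lower for 16 (median -0.78), with 5 reversed and 10 lost. Stard4, a cholesterol carrier, had 841, 723, 780 and 721 normalised counts in sgNlrc5 tumours, against 1730, 1780, 1700 and 1630 in sgScramble tumours. In culture it had 762 and 718 with sgNlrc5, against 593 and 615 with sgScramble. The groups were separate in both settings, with a difference of -1.45 ± 0.10 (adjusted p = 5.1e-08). Idi1, an isomerase of isoprenoid synthesis, stood at -0.98 ± 0.13 and 0.32 ± 0.09. The culture effect of Stard4 did not pass without sgScramble replicate 1 (adjusted p = 0.059) or the trend (0.066), nor that of Idi1 without sgScramble replicate 2, sgNlrc5 replicate 1 or 2, or the trend (0.051 to 0.13). Lost members included Insig1, which retains SREBP in the endoplasmic reticulum, at -0.34 in tumours and 1.06 in culture, and Srebf2, the SREBP2 gene, at -0.20 and 0.54.

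Hypoxia and glycolysis genes were often lost or reversed too. Of 32 tested, 3 were higher and 7 lower in tumours, 24 were higher and 1 lower in culture, and the difference was higher for 1 and lower for 19 (median -0.67), with 6 reversed, 12 lost, 6 undecided and 1 kept. Over all genes 15.8% were higher and 21.9% lower in tumours, so these tumour counts were not above the general shares. In culture the shares over all genes were 17.7% and 16.6%, and for the difference 15% and 21.6%. Bnip3l, a mitophagy receptor, had 1860, 2090, 2200 and 2320 normalised counts in sgNlrc5 tumours, against 4210, 3950, 4020 and 4460 in sgScramble tumours. Culture libraries gave 1890 and 1680 with sgNlrc5, against 1290 and 1260 with sgScramble. The groups did not overlap, and the difference was -1.46 ± 0.11 (adjusted p = 1e-07). Pdk1, which restrains pyruvate dehydrogenase, was lost, at -0.17 ± 0.09 in tumours and 1.47 ± 0.06 in culture. Aldoc, a glycolytic aldolase, was reversed at -0.61 and 1.30, while Ldha, Pgk1 and Gapdh were lost, at -0.18, -0.03 and -0.40 in tumours and 0.53, 0.73 and 0.30 in culture. Slc16a3, a lactate exporter, was the 1 member with a called higher difference, at 1.55 in tumours and -1.19 in culture (adjusted p = 0.076). The hypoxia motif ACGTG, searched on both strands, was in 16 of the 29 members in the promoter table (55.2%), against 16.6% of all promoters. It was in 22.8% of the tested genes that the table holds, but only 77% of tested genes were in it.

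Several chaperones of the endoplasmic reticulum lost their culture rise. Of 24 tested genes of the integrated stress and unfolded protein responses, 3 were higher and 5 lower in tumours, 15 were higher and 4 lower in culture, and the difference was higher for 4 and lower for 11 (median -0.44). The tumour counts were not above the shares over all genes (15.8% higher and 21.9% lower). Hspa5, the chaperone BiP, and Pdia4, a disulfide isomerase, were lost, at -0.15 and -0.22 in tumours and 0.49 and 0.38 in culture. Hsp90b1 and Dnajc3, a chaperone and a cochaperone, were called reversed, at -0.33 and -0.35 in tumours and 0.57 and 0.59 in culture. Each tumour call ended without any 1 of 6 of the 8 tumour libraries (adjusted p 0.053 to 0.094), with the trend left out (0.054 and 0.071) and with median centring (0.077 and 0.067). For Hsp90b1 the 6 were every sgScramble replicate and sgNlrc5 replicates 3 and 4, and for Dnajc3 sgScramble replicates 1, 2 and 3 and sgNlrc5 replicates 1, 3 and 4. Asns, the asparagine synthetase gene, was kept with a larger fall in tumours, at -1.22 and -0.23.

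Many proliferation genes fell in tumours. Of 30 tested, 2 were higher and 16 lower in tumours (15.8% and 21.9% over all genes), 6 were higher and 5 lower in culture (17.7% and 16.6%), and the difference was higher for 1 and lower for 14 (median -0.48). Cenpe, a kinetochore motor, had 285, 169, 131 and 190 normalised counts in sgNlrc5 tumours, against 653, 775, 724 and 683 in sgScramble tumours. For culture the values were 1370 and 1370 with sgNlrc5, against 1630 and 1660 with sgScramble. It was kept with a larger fall in tumours, -1.92 against -0.27, and its culture call ended without the trend (adjusted p = 0.054). Mki67, the proliferation marker, was reversed at -1.42 and 0.16, and Cenpf, a centromere protein, at -1.28 and 0.12. The culture effect of Cenpf did not pass without any 1 of the 4 culture libraries (adjusted p 0.065 to 0.23), the trend (0.20), with quantile normalisation (0.12) or with equal sums (0.20). The replication helicase genes Mcm2, Mcm4 and Mcm6 were gained, at -0.70, -0.48 and -0.48. Leukocyte markers were higher in the same tumours, and their part in the lower values was not tested.

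Ribosomal protein genes shifted by less. Of 30 tested, 0 were higher and 21 lower in tumours (15.8% and 21.9% over all genes), and 11 were higher and 2 lower in culture (17.7% and 16.6%). The difference was lower for 23 (21.6% over all genes), with a median of -0.38, and 11 were gained, 6 reversed and 4 lost. Rps24 stood at -0.87 ± 0.12 in tumours and 0.04 ± 0.03 in culture, and Rpl4 at -0.62 ± 0.11 and 0.14 ± 0.02. The culture effect of Rpl4 did not pass without the trend (adjusted p = 0.14). Of 15 heat shock genes the difference was higher for 2 and lower for 5 (median -0.24), with 2 higher and 3 lower in tumours and 4 higher and 5 lower in culture. Their tumour counts were not above the shares over all genes (15.8% higher and 21.9% lower). Hsp90aa1, a cytosolic chaperone, was called reversed at -0.88 and 0.16, but its culture effect was -0.023 with quantile normalisation (adjusted p = 0.73) and did not pass without the trend (0.13). Hspb1, a small heat shock protein, was gained, at 1.02 ± 0.15 in tumours and -0.05 ± 0.08 in culture.

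Some genes of DNA methylation were lower with the guide in tumours. Of 13 tested, 0 were higher and 6 lower in tumours (15.8% and 21.9% over all genes). In culture 4 were higher and 1 lower (17.7% and 16.6%), and the difference was lower for 6 (21.6%), with a median of -0.47. Tet1, which oxidises 5-methylcytosine, had 197, 207, 227 and 213 normalised counts in sgNlrc5 tumours, against 426, 452, 501 and 435 in sgScramble tumours. Its culture values were 487 and 464 with sgNlrc5, against 324 and 322 with sgScramble. The groups lay apart in both settings with opposite order, and the difference was -1.66 ± 0.13 (adjusted p = 1.2e-07). Mbd2, a methyl-CpG binding protein, was gained, at -0.44 ± 0.07 in tumours and 0.09 ± 0.06 in culture, and Tet3, a related dioxygenase, at -0.76 and -0.09. Dnmt1, the maintenance methyltransferase, was lost, at -0.36 (adjusted p = 0.16) and 0.25.

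Among culture effects that were lost was that of Itpripl2. It had 164, 125, 133 and 129 normalised counts in sgNlrc5 tumours, against 394, 52.5, 70.6 and 130 in sgScramble tumours. The cultures had 11.2 and 7.75 with sgNlrc5, against 913 and 883 with sgScramble. A culture change of -6.44 ± 0.20 stood beside tumour groups that overlapped, where sgScramble replicate 1 lay above the rest. The tumour effect of 0.22 passed without that replicate (0.80, adjusted p = 0.042), and was -0.16 and -0.02 without sgScramble replicate 2 or 3. Xlr3c, of an X-linked multigene family, had 128, 143, 125 and 167 in sgNlrc5 tumours, against 160, 46.8, 82.5 and 81.1 in sgScramble tumours. With sgNlrc5 in culture it had 15.7 and 19.4, against 414 and 410 with sgScramble. Its tumour effect of 0.72 passed without sgScramble tumour replicate 1 (1.03, adjusted p = 0.0059) and with voom (0.043), and reads may be shared with its close relatives. Jup, encoding plakoglobin, stood at 0.26 ± 0.26 and -3.97 ± 0.54, with no culture call without the trend (adjusted p = 0.064). Its sgNlrc5 cultures had 7.87 and 0.969, and its culture effect was -5.05 without replicate 1 and -2.88 without replicate 2.

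Other lost effects had been higher in culture. Glrb, a glycine receptor subunit, had 1820, 2070, 1550 and 1590 normalised counts in sgNlrc5 tumours, against 1670, 2520, 2650 and 2110 in sgScramble tumours. In culture it had 770 and 718 with sgNlrc5, against 140 and 133 with sgScramble. The tumour groups overlapped at a level above either culture group, although the tables were normalised separately and levels compare roughly. Tmem144 rested on 3 reads in sgScramble culture against 117 with sgNlrc5, a ratio between 14.2 and 209, and stood at 0.51 ± 0.22 in tumours (adjusted p = 0.088). Hs3st1, a heparan sulfate sulfotransferase, Ell2, an elongation factor, and Sigirr, a brake on interleukin-1 receptors, stood at 0.27, -0.39 and -0.24 in tumours and 2.48, 1.71 and 1.85 in culture. Tumour effects passed for Tmem144 without sgScramble replicate 1 or sgNlrc5 replicate 1 (adjusted p = 0.046 and 0.031), Glrb without sgScramble replicate 1 (-0.47, 0.015), Ell2 without sgScramble replicate 1 (0.047) or with quantile normalisation (0.031), and Sigirr without sgNlrc5 replicate 2 (0.039).

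The leading kept falls were those of Peg13, Pcdhb2, Igfn1, Fam234b and Npnt. Peg13, an imprinted noncoding RNA, had 4.01, 5.36, 9.04 and 9.04 normalised counts in sgNlrc5 tumours, against 160, 153, 200 and 143 in sgScramble tumours. Culture libraries gave 15.7 and 17.4 with sgNlrc5, against 326 and 357 with sgScramble. The effects were -4.44 ± 0.28 and -4.28 ± 0.21, and the difference of -0.16 turned to 0.039 without sgNlrc5 tumour replicate 1 and to 0.29 with a pseudocount of 8. Peg13 overlaps Trappc9, and no source used here gives the strand setting of the counting, so reads of the 2 may be mixed. Pcdhb2, a clustered protocadherin, stood at -3.51 and -4.38, Igfn1, an immunoglobulin and fibronectin domain protein, at -3.36 and -4.34, and Fam234b at -2.77 and -3.14. For Igfn1 the difference of 0.99 passed without culture sgNlrc5 replicate 2 (1.39, adjusted p = 0.020) or tumour sgScramble replicate 1 (1.27, 0.036). Npnt, the matrix protein nephronectin, was kept with a larger fall in tumours, -5.04 ± 0.39 against -2.70 ± 0.37. Peg10, an imprinted retrotransposon-derived gene, had 277, 230, 261 and 304 in sgNlrc5 tumours, against 1150, 1130, 1210 and 1150 in sgScramble tumours, and 3030 and 2870 against 5710 and 5820 in culture. Of the 938 kept genes the difference was not called for 697, was larger in tumours for 212 and smaller in tumours for 29.

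Most tested pigment genes were higher with the guide in each setting, though few of the 7 melanocyte markers summed above were higher in tumours. Of 20 melanocyte genes, 13 were higher and 1 lower in tumours (15.8% and 21.9% over all genes), and 16 were higher and 0 lower in culture (17.7% and 16.6%). Of the 20, 11 were kept, with 4 higher and 4 lower differences (15% and 21.6% over all genes) and a median of 0.05. Of the 7 markers, 2 were higher and 1 lower in tumours (median effect 0.13), against 6 higher and 0 lower in culture (0.49). Mlana, a melanosome protein, stood at 0.53 and 0.49, Tyrp1, a melanin synthesis enzyme, at 0.42 and 0.69, and Slc45a2, a melanosomal transporter, at 0.80 and 0.46. Rab27a, which moves melanosomes, was kept with a smaller effect, 0.37 ± 0.08 against 0.96 ± 0.06, and Oca2, a melanosomal channel, with a larger one, 1.57 against 0.58. Trpm1, a melanocyte cation channel, had 12500, 15100, 9170 and 10900 normalised counts in sgNlrc5 tumours, against 5360, 6640, 5740 and 5470 in sgScramble tumours. In culture it had 1200 and 1080 with sgNlrc5, against 1130 and 1180 with sgScramble, so that it was gained, at 1.02 ± 0.14 and -0.02 ± 0.06. Tyr, encoding tyrosinase, was the 1 reversed member, at -0.95 in tumours (adjusted p = 0.044) and 1.05. Mitf, the lineage regulator, was lost, at -0.01 and 0.41.

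Gained genes had an effect in tumours with none called in culture. Spp1, encoding osteopontin, had 3940, 4040, 3050 and 3480 normalised counts in sgNlrc5 tumours, against 211, 406, 511 and 475 in sgScramble tumours. For culture the values were 82.1 and 53.3 with sgNlrc5, against 106 and 93.2 with sgScramble. Its culture effect of -0.58 missed the threshold (adjusted p = 0.052), and passed under 8 alternatives (adjusted p 0.013 to 0.049), among them without sgNlrc5 culture replicate 1 (-0.89). Foxf1, a forkhead transcription factor, had 363, 384, 354 and 406 in sgNlrc5 tumours, against 67.8, 48.7, 65.6 and 50.3 in sgScramble tumours. Its culture values were 63 and 44.6 with sgNlrc5, against 71.8 and 73.2 with sgScramble. The tumour groups of both genes were far apart, but tumour groups that did not overlap were required of every leading gained gene. Fbln5, of elastic fibres, Htra3, a secreted protease, and Rdh5, a retinol dehydrogenase, stood at 2.77 ± 0.61, 2.32 ± 0.20 and 1.61 ± 0.37 in tumours and -0.14, -0.10 and -0.79 in culture. Fbln5 had 763, 53.5, 75.6 and 175 in sgScramble tumours, all below the 926 to 1230 of sgNlrc5 tumours, and its tumour effect was 3.55 without sgScramble replicate 1 and 2.28 without replicate 2. Rdh5 passed in culture under 5 alternatives (adjusted p 0.015 to 0.048), among them without sgNlrc5 culture replicate 1 (-1.18). Macrophages are known to express Spp1, and their markers were higher in the same tumours, whose part was not tested.

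Among gained falls, Ppig, a nuclear cyclophilin, had 393, 245, 170 and 248 normalised counts in sgNlrc5 tumours, against 1110, 1040, 1030 and 951 in sgScramble tumours. The cultures had 1670 and 1800 with sgNlrc5, against 1720 and 1650 with sgScramble. The tumour groups did not overlap, as the choice of leading genes required. The culture groups overlapped, and the effects were -2.03 ± 0.19 in tumours and 0.04 ± 0.05 in culture. Fndc3c1, with fibronectin domains, stood at -3.21 ± 0.44 and -0.10 ± 0.11. Ccdc18, Mme, the peptidase neprilysin, and Zfp960, a zinc finger protein, stood at -1.98, -1.82 and -1.60 in tumours and 0.14, 0.30 and 0.51 in culture. Mme passed in culture without sgNlrc5 replicate 1 (0.59, adjusted p = 0.048), and Zfp960 with quantile normalisation (0.69, adjusted p = 0.032).

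Genes next to Nlrc5 followed no common course. Of 25 tested, 3 were higher and 2 lower in tumours (15.8% and 21.9% over all genes), 5 were higher and 2 lower in culture (17.7% and 16.6%), and the difference was higher for 2 and lower for 3 (median -0.07). Cx3cl1, a membrane-bound chemokine, was gained, at 1.86 in tumours and -0.43 in culture. Mmp15, a membrane metalloproteinase, was reversed, at -0.91 ± 0.21 and 0.38 ± 0.06.

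The remaining lists held few differences or went both ways. Of 17 p53 targets the difference was higher for 4 and lower for 2 (median 0.11), with 3 higher and 3 lower in tumours and 4 higher and 7 lower in culture. Shares over all genes were 15% and 21.6% for the difference, 15.8% and 21.9% in tumours and 17.7% and 16.6% in culture. Btg2, an antiproliferative member, was reversed at 0.51 and -0.59, though its tumour effect did not pass without sgScramble tumour replicate 2 or 3 or sgNlrc5 tumour replicate 1 (adjusted p 0.052 to 0.064). Phlda3, an AKT inhibitor, was gained at 0.42 and -0.08, with a culture effect that passed under quantile (adjusted p = 0.046) or equal-sum scaling (0.024). Of 15 immediate early genes the difference was higher for 7 and lower for 2 (median 0.40), with 4 higher and 1 lower in tumours and 3 higher and 5 lower in culture. Myc, a growth regulator, was reversed at -0.36 ± 0.10 and 0.30 ± 0.05. Of 7 imprinted genes tested from a list that does not include Peg13, the difference was higher for 1 and lower for 3 (median -0.34), with 0 higher and 1 lower in tumours and 3 of each in culture. Plagl1, a zinc finger member, was lost at -0.12 ± 0.13 and 0.65 ± 0.04.

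Of 15 mitochondrially encoded genes, 0 were called in tumours, 5 were higher and 3 lower in culture, and 1 difference was called (median 0.34). That gene was mt-Rnr2, the large mitochondrial ribosomal RNA, with 9930, 10400, 3630 and 4880 normalised counts in sgNlrc5 tumours, against 4310, 4980, 7290 and 6050 in sgScramble tumours. With sgNlrc5 in culture it had 7840 and 8070, against 3260 and 3210 with sgScramble. The sgNlrc5 tumours fell into a high pair and a low pair, and the difference of -1.06 (adjusted p = 0.019) did not pass without culture sgScramble replicate 2 (0.051), the trend (0.064) or array weights (0.11). For mt-Nd4l, the list's second named gene, the difference of 1.16 ± 0.69 did not pass (adjusted p = 0.20). The MHC class II list and the germline list had 2 tested members each: H2-DMb1 was reversed, at 1.68 and -0.47, H2-DMa gained, at 2.33 and -0.44, Xlr3a lost, at -0.12 and 0.47, and Rhox5, a germline homeobox gene, kept with a smaller fall, at -1.54 and -3.85.

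The class counts rest on 2 culture libraries a group. Without culture sgScramble replicate 1 or 2 the culture calls over all its tested genes fell to 2512 or 2642, against 4156, and genes reversed to higher in tumours fell to 258 or 254, against 409. The intensity trend shares spread between genes of like level, and without it culture calls numbered 1581 and reversed genes 327 in all, against 925.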

How the data were processed

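RNA of 12 B16F10-TDMa libraries was sequenced with a strand-specific kit, per the labels' protocols. The submitters' processing notes name STAR 2.7.10a, DESeq2 1.36.0, FastQC 0.12.0 and the build GRCm39 (mm39), without roles. No source used here gives the counter, its strand setting or the annotation. The authors deposited log2(normalised count + 1) per gene, in 1 table for tumours and 1 for culture, each normalised alone. Normalised counts are the values turned back from log2. Whole reads were recovered from the steps between low values, with a tolerance of 0.1.

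Guide effects were fitted per table, and their difference in 1 fit over both with array weights per table (2.23 in culture, 0.67 in tumours), with limma 3.58.1 in R 4.3.3, an intensity trend and Benjamini-Hochberg adjustment over all genes tested, called at 0.05, two-sided. Genes needed a mean normalised count of at least 10. Effects are on the log2(value + 1) scale, which understates changes of low genes. The code was tested on simulated data. The text names Nlrc5, class I members, the leading genes of each class with a mean of at least 50 in a group of each table and groups that do not overlap, and 2 members per list with the smallest p. Some genes that this rule selects are not reported here. Members shown only to describe a list's roles were chosen after their values were seen. Members and lists were chosen with earlier results of these data known. Intervals are 95% and cover counting error only. Alternatives left out each library, or changed the filter, pseudocount, scaling, spread, trend, weights, blocking or test. Promoters came from a RefSeq table of GRCm38.p6, matched by symbol, and no coordinate was moved between builds. Culture libraries of another line were not used here.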

Additional observations from a re-analysis of the deposited data

Results flagged for a closer look

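The guide effect differed between tumours and culture by the interaction test for 1771 genes with a higher effect in tumours and 2540 with a lower one, or 2068 and 2127 with each library centred on its median. For the genes named in the report, the tested differences, tumour minus culture in log2, are as follows. No explanation was tested.

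Among genes reversed to higher in tumours, the difference was 7.88 for Neurl3, 6.09 for Sp100, 5.64 for Prex1, 5.26 for Pik3cd, 5.16 for Trim30a and 4.94 for Apol9b. In the interferon and antigen processing lists it was 4.87 for Oas1a, 2.86 for Ddx58, 3.29 for Cxcl10, 5.08 for Tgtp2, 2.19 for Tapbp and 2.19 for Tap2. It was 2.39 for Csf1, 4.65 for Ccl5, 3.15 for Axl, 2.44 for Postn, 1.3 for Jun and 1.1 for Btg2. In class I it was 1.31 for H2-T24, 1.67 for H2-T22 and -1.17 for the processing gene Psmb9.

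Among genes reversed to lower in tumours it was -5.97 for Prxl2a, -4.29 for Pak3, -3.13 for Ddit4l, -3.13 for Tenm4 and -3.11 for Col11a2. It was -1.47 for Tead4, -1.45 for Stard4, -1.3 for Idi1, -1.46 for Bnip3l, -0.9 for Hsp90b1, -0.94 for Dnajc3 and -1.4 for Cenpf. It was -0.65 for Myc, -1.03 for Hsp90aa1, -0.76 for Rpl4, -1.66 for Tet1 and -1.29 for Mmp15.

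Among lost effects it was -4.19 for Tmem144, -2.77 for Glrb, -2.21 for Hs3st1, -2.09 for Ell2, -2.09 for Sigirr, -1.64 for Pdk1, -0.77 for Plagl1 and -1.06 for mt-Rnr2. It was 6.66 for Itpripl2, 5.21 for Xlr3c, 4.48 for Gbp3, 4.23 for Jup, 2.86 for Gbp2 and 4.58 for Col6a1.

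Among gained effects it was 3.82 for Spp1, 3.13 for Foxf1, 2.92 for Fbln5, 2.42 for Htra3, 2.4 for Rdh5, 1.04 for Trpm1, 1.07 for Hspb1 and 0.51 for Phlda3. It was -3.1 for Fndc3c1, -2.12 for Ccdc18, -2.11 for Mme, -2.11 for Zfp960, -2.06 for Ppig, -0.9 for Rps24 and -0.53 for Mbd2. Among kept effects it was -2.34 for Npnt, -1.65 for Cenpe, -1.15 for Peg10 and -0.59 for Rab27a.

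In 7 of the 162 groups of 4 tumours examined, 1 library stood apart from the other 3 by Dixon's criterion. Chance meets that criterion in about 1 in 20 independent groups. These groups are genes measured in the same tumour libraries and are not independent, so the count cannot be judged against that rate. With sgNlrc5 these were Pak3 in replicate 3 (25.3 normalised counts), Prex1 in replicate 1 (286), Ddx58 in replicate 4 (1590), Hsp90aa1 in replicate 1 (9850) and Plagl1 in replicate 1 (9860). With sgScramble they were Col11a2 in replicate 1 (86.2) and Pik3cd in replicate 2 (98.3).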

How the results depend on the processing

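Over the 12 libraries left out in turn, culture calls ran from 2512 to 4156, genes reversed to higher in tumours from 254 to 417 and to lower from 332 to 533. Lost genes ran from 408 to 684 (higher in culture) and 255 to 442 (lower), kept genes from 231 to 357 (higher) and 355 to 602 (lower), and undecided genes from 602 to 1409. The low ends came without culture sgScramble replicate 1 or 2. Without the intensity trend there were 1581 culture calls, 201 and 126 reversed genes (61.5% higher in tumours, against 44.2%), 292 and 253 lost, 134 and 171 kept and 317 undecided. Without array weights 2799 differences were called, 1595 of them lower, with 336 and 249 genes lost and 674 gained falls. Quantile normalisation moved the median difference of all genes to -0.11 and median centring to -0.01. The causes of these shifts were not tested.

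Differences that changed sign were those of H2-M3 (-2.36 to 0.092 over the libraries left out), Tap1 (-0.048 to 0.421), Peg13 (-0.295 to 0.039, and 0.292 with a pseudocount of 8) and Fam234b (-0.045 with quantile normalisation). The tumour effect of Itpripl2 ran from -0.164 to 0.798. Culture effects near 0 did so for Fndc3c1 (-0.217 to 0.01), Ppig (-0.012 to 0.091, and -0.008 with equal sums), Trpm1 (-0.096 to 0.055), Hspb1 (-0.131 to 0.038), mt-Nd4l (-0.911 to 0.02), Rps24 (-0.012 with equal sums) and Hsp90aa1 (-0.023 with quantile normalisation).

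Deviations from the group means showed no clear pairing by replicate number. They cannot tell whether samples were matched by design, and with 2 culture libraries a group the culture values are mirror images (0.004 and -0.004). Same-numbered libraries had deviations correlated at 0.004 in culture and at -0.194, 0.096, -0.187 and -0.01 in tumours. With the replicate number as a block there were 4533 tumour calls against 5268, 4433 culture calls against 4156 and 3832 differences against 4311. Under the block the Nlrc5 difference passed (adjusted p = 0.012), and so did the tumour effect of Gbp3 (0.01) and the culture effects of Spp1 (0.024) and Rdh5 (0.033), while the tumour effects of Hsp90b1 (0.09) and Dnajc3 (0.055) did not. Genes with few reads, such as Neurl3, Sp100 and Tgtp2 in sgNlrc5 culture, are limited by depth.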
